A study of Mus musculus with 40 samples.

Results

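The livers of female fetuses whose dams ate a diet changed in both fat and folic acid were compared directly with those of female fetuses whose dams ate the unchanged control diet. The comparison used 9 of the 40 libraries of the series: 5 libraries of the WDF diet (45% of calories from fat, 10 mg/kg folic acid) and 4 of the 5 libraries of the CD diet (10% of calories from fat, 2 mg/kg folic acid). They were chosen by diet and fetal sex as labelled. All fetuses were C57BL/6 at gestational day 18.5, and all dams had been on their diet for 13 weeks before mating and stayed on it through pregnancy. The labels present the 45% fat diet as a model of gestational diabetes. WDF and CD differ in both components at once, so the share of each cannot be told apart in this comparison. The other diets are shown beside it only for their levels: WD (45% fat, 2 mg/kg) and CDF (10% fat, 10 mg/kg). Polyadenylated RNA of whole liver was sequenced, 1 library per fetus, and values are read counts that the authors had divided by a size factor per library, called normalised reads below. Dam and litter are not named in the labels. The p-values below therefore reflect differences among fetuses, and litter mates may be among them.

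Just before birth the mouse liver does a pair of jobs. It is still a blood-forming organ, crowded with red cell precursors and megakaryocytes, and its hepatocytes are taking on their metabolic duties. In adult liver the enzymes that build new fatty acids and sterols are controlled through the transcription factors SREBP1c and SREBP2. Folic acid, once reduced, carries the carbon units that cells use to make thymidine and purines and to regenerate methionine, and dividing red cell precursors are among the cells most sensitive to its lack.

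Before the comparison, the libraries were checked against markers of liver and of neighbouring organs. CD 4 was left out: it held 7708 normalised reads of Alb, the serum albumin gene of hepatocytes, and 101200 of Sftpc, the surfactant protein C gene of lung alveoli. In the 9 libraries used, Alb lay between 892700 and 1497000. CD 5 stood apart within its own group, with 30180 normalised reads of Sftpc, 2108 of Sftpb (surfactant protein B), 2920 of Myh6 (the myosin heavy chain of heart atria and ventricles) and the lowest Alb value of the 9. The summed level of 16 lung markers was 1478 to 1806 in WDF and 47630 in CD 5, against at most 1753 in CD 1, 2 and 3, and 15 of the 16 were highest in CD 5. WDF 1 carried heart message, with 736.9 normalised reads of Myh6. Its summed heart level was 7209, against 26310 in CD 5 and at most 198.5 in the other CD libraries. Sums of normalised reads over all genes were 15.8 to 20.4 in the 9 libraries, in units of 1000000. CD 5 is 1 of 4 libraries of its group, so the main results are also given without it. Gene counts with a lung covariate, and without both CD 5 and WDF 1, are given at the end.

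**Figure D1:**
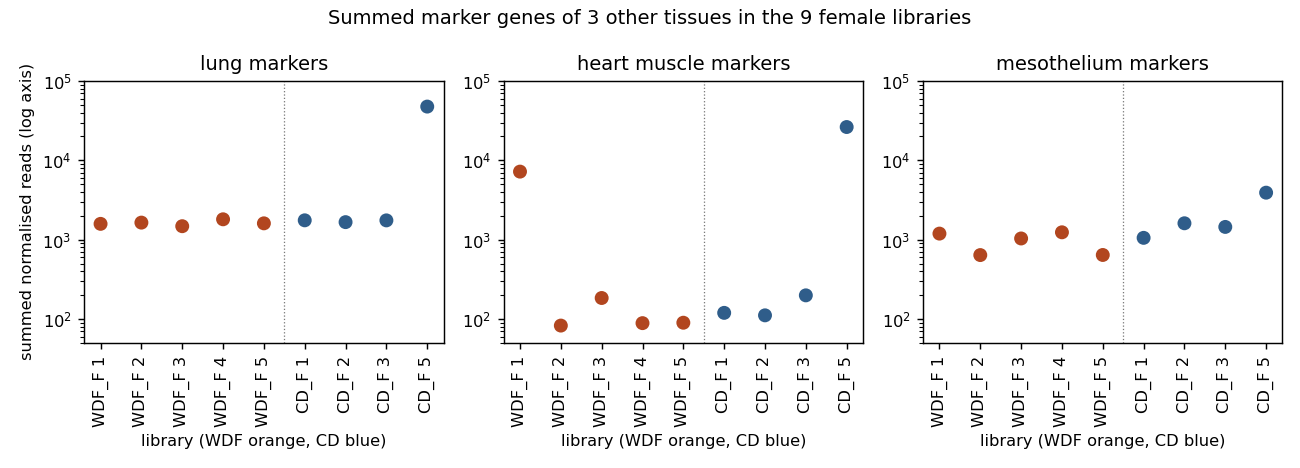
Summed normalised reads of lung (16), heart muscle (12) and mesothelium (10) marker genes in each of the 9 female libraries, on log axes, with WDF left of CD. CD 5 stands above every other library for all of these tissues, and WDF 1 is second for heart muscle at 7209.

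Of 14343 genes tested with limma on log2(value + 1), none passed a Benjamini-Hochberg adjusted p of 0.05 between WDF and CD females (0%), and the smallest adjusted p was 0.99993. At an unadjusted p under 0.05 there were 430 genes (3%), with 199 higher (1.39%) and 231 lower (1.61%) in WDF. None of these genes passed the adjustment, so the values below describe the libraries and no gene is called changed. Log2 differences of all tested genes centred on -0.00, with 5th and 95th percentiles of -0.50 and 0.36. The median standard error of a gene was 0.24. The values of WDF and CD did not overlap for 64 genes that were higher (0.446%) and 80 that were lower (0.558%). Some genes separate groups this small with no diet effect, so a lack of overlap named below is a description only. The 3% at an unadjusted p under 0.05 is likewise a smaller share than the threshold passes on average when no gene differs.

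CD 5 held the extreme value of most genes with an unadjusted p under 0.05. Of the 231 lower genes, 181 (78.4%) had their highest value of the 9 libraries in CD 5, which held the highest value of 17.4% of all tested genes. Of the 199 higher genes, 147 (73.9%) had their lowest value in CD 5, against 17.8% of all tested genes. Genes picked for a difference between the groups tend to have such an extreme in some CD library. The shares over all genes are therefore not a like baseline. Within the CD group, CD 1, 2 and 3 held the highest value of 10, 24 and 11 of the lower genes. They held the lowest value of 10, 35 and 6 of the higher genes. Without CD 5 the count at an unadjusted p under 0.05 was 166 (1.16%), with 95 higher (0.662%) and 71 lower (0.495%), 98 genes were in both sets, and again none passed the adjusted threshold. The groups then did not overlap for 114 higher (0.795%) and 157 lower genes (1.09%), over fewer libraries.

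Red cell genes all leaned one way. All 29 tested members, from the master regulators to heme enzymes, membrane proteins and globins, had a higher mean log2 level in WDF than in CD, against 49.7% of all tested genes. Their median log2 difference was 0.38, where that of all tested genes was -0.00. None passed the adjusted threshold, and 7 of 29 had an unadjusted p under 0.05 (1.39% of all genes in this direction): Klf1, Slc4a1, Fech, Ank1, Rhag, Ermap and Slc25a37. Without CD 5 all 29 were again higher (48.6% of all genes), with a median of 0.35, and 2 had an unadjusted p under 0.05. The members are measured in the same libraries and are not independent of each other. In whole liver, more red cell precursors and more red cell message per cell cannot be told apart.

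Slc4a1 encodes band 3, the anion exchanger that ties the red cell membrane to its skeleton, and lies at chr11:102348824-102366203 on the minus strand of mm10. It had 31630, 39960, 30750, 31670 and 28460 normalised reads in WDF 1 to 5, against 26790, 22320, 22580 and 14820 in CD 1, 2, 3 and 5. Every WDF library was above every CD library, and WDF 2 was the highest and CD 5 the lowest. The means were 32490 ± 4373 in WDF (SD, n = 5) and 21630 ± 4979 in CD (SD, n = 4). The log2 difference was 0.61 with a standard error of 0.19 (limma, unadjusted p = 0.00249), and 0.44 without CD 5 (unadjusted p = 0.0289). Rhag, the ammonium channel of the Rh complex in the same membrane, was the only other list member whose groups did not overlap, at 2854 to 4178 in WDF and 2107 to 2812 in CD.

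Klf1 is the zinc finger factor that switches on most late red cell genes by binding CACCC-type boxes. Its values were 1716, 2290, 2438, 1473 and 2148 in WDF and 1640, 1331, 1680 and 1295 in CD. WDF 4 lay within the range of the CD libraries, and the other WDF libraries lay above it. Klf1 differed by 0.42 (log2) with a standard error of 0.17 (limma, unadjusted p = 0.0158). Gata1, its partner factor, differed by 0.38 (limma, unadjusted p = 0.13), and Epor, the erythropoietin receptor, by 0.33 (unadjusted p = 0.13).

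Heme synthesis genes differed in how far they rested on a single WDF library. Alas2, the first and rate-limiting enzyme of heme synthesis in red cells, had 10550, 14810, 37440, 9870 and 16580 normalised reads in WDF, against 12040, 8997, 10610 and 11240 in CD. WDF 3 was far above every other library and the groups overlapped, so the log2 difference of 0.56 had a standard error of 0.37 (limma, unadjusted p = 0.144). Fech, which inserts iron into the ring, was more even at 7247 to 10940 in WDF and 6130 to 7368 in CD (log2 difference 0.39, standard error 0.15, limma unadjusted p = 0.0149). Slc25a37, the mitochondrial iron carrier mitoferrin, differed by 0.46 (limma, unadjusted p = 0.0212). The globin genes overlapped widely: Hbb-bs spanned 500700 to 1460000 in WDF and 545400 to 874800 in CD, with a log2 difference of 0.20 and a standard error of 0.35. Reads of Hba-a1 and Hba-a2, and of the beta globin copies Hbb-bs and Hbb-bt, can be assigned to the near-identical partner, so their separate values are uncertain.

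All 29 members peaked in the same 2 libraries, 14 in WDF 2 and 15 in WDF 3, and their lowest values lay most often in CD 5 (13) and CD 2 (11). The list's mean log2 level, set to 0 for the CD mean, was 0.22, 0.66, 0.72, 0.00 and 0.35 in WDF 1 to 5, and 0.19, -0.14, 0.07 and -0.12 in CD 1, 2, 3 and 5. The list level of WDF 4 and of WDF 1 therefore lay among or close to the CD libraries. WDF 3 also stood out for Malat1, a nuclear long RNA, at 12530 normalised reads against 2011 to 7414 in the other WDF libraries and 2548 to 7221 in CD. It held the highest value of 24.5% of all tested genes and the lowest of 24.8%, more than any other library of the comparison. Without WDF 3 the red cell median was 0.31 and 27 of 29 members were higher, and without WDF 2 the median was 0.31 with 29 of 29 higher. The 7 members at an unadjusted p under 0.05 became 2 without WDF 2 and 12 without WDF 4.

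To show what red cell promoters share, the 250 bases upstream of the RefSeq start (build GRCm38.p6) were searched on both strands for AGATAA, the core bound by GATA factors, and for CACCC, the core bound by KLF1, which do not contain one another. Of 21 red cell members with an entry, 8 held AGATAA (38.1%), against 6.39% of 10759 tested genes with an entry. CACCC stood in 16 of the 21 (76.2%), against 57.2% of all. Both words occur in the Alas2 window, chrX:150547167-150547416 on the plus strand, with matches on either strand in capitals.

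Alas2: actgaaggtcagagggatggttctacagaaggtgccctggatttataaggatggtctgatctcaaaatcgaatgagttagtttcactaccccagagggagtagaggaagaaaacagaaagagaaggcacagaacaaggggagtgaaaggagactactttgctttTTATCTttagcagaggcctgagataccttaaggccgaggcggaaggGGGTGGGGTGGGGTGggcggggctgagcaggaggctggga

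It has 1 AGATAA match, read as TTATCT on the printed strand, and 3 CACCC matches, read as GGGTG, near the RefSeq start. The GENCODE gene starts inside this window, at chrX:150547375, so the CACCC matches lie just within it. A match is a description of the letters and was not tested as a site.

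Cell division genes leaned the same way. Of 34 cell cycle and DNA replication genes, 32 were higher in WDF and 2 were lower, with a median log2 difference of 0.25, and none passed the adjusted threshold. An unadjusted p under 0.05 was found for 5 of them, all higher in WDF (1.39% of all genes): Top2a, Mki67, Cenpe, Mcm2 and Cdc6. Without CD 5 the median was 0.19, 28 of 34 were higher and 0 had an unadjusted p under 0.05 (limma). Without WDF 2 the median was 0.20, 29 of 34 were higher and again 0 had an unadjusted p under 0.05. That count was 2 without CD 2 or without WDF 3, 3 without WDF 5, 9 without CD 1 and 11 without WDF 4.

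Top2a, the topoisomerase that untangles chromosomes in dividing cells, had 3466, 4790, 5484, 3121 and 4485 normalised reads in WDF, and 3684, 2984, 3454 and 2744 in CD. WDF 2, 3 and 5 were above all CD libraries and WDF 1 and 4 were not. Top2a differed by 0.39 (log2) with a standard error of 0.17 (limma, unadjusted p = 0.0281), and 0.31 without CD 5 (unadjusted p = 0.0966). Mki67, the marker protein of cycling cells, had 14170, 17090, 11620, 10950 and 11480 in WDF, against 11190, 10090, 9283 and 5454 in CD. Only WDF 4 lay inside the CD range, at 10950 against a highest CD value of 11190, and CD 5 was far the lowest. Its log2 difference of 0.57 (limma, unadjusted p = 0.041) was 0.34 without CD 5 (unadjusted p = 0.227). Cdc6, which loads the replicative helicase, differed by 0.39 (limma, unadjusted p = 0.0228), and Gins2, a part of that helicase, was one of the pair lower in WDF at -0.03. WDF 2 held the highest value for 21 of the 34 genes and CD 5 the lowest for 20.

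Promoters of cell cycle genes are known for CCAAT boxes and for the CHR element TTTGAA. In the same 250-base windows CCAAT stood in 21 of 28 members with an entry (75%), against 36.9% of all tested genes, and TTTGAA in 6 of 28 (21.4%), against 11%. Top2a has both, with 6 CCAAT and 2 TTTGAA matches over both strands, shown in capitals in the window chr11:99024190-99024439, printed 5′ to 3′ along the minus strand on which the gene is read.

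Top2a: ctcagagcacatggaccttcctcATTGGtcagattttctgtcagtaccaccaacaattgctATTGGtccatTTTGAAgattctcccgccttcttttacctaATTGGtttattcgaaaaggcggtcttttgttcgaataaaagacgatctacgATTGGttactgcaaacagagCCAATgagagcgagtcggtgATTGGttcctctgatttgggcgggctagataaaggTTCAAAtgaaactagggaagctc

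Matches read ATTGG or TTCAAA where the motif lies on the opposite strand.

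**Figure D2:**
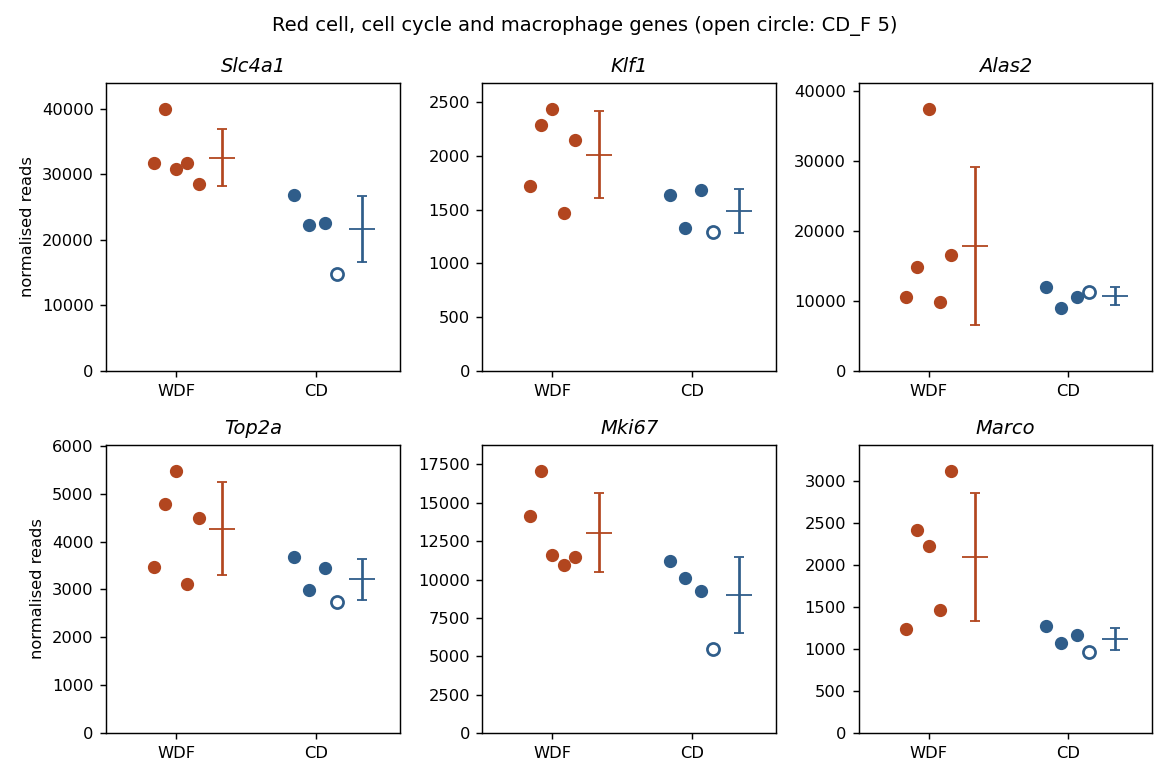
Normalised reads per library of Slc4a1, Klf1, Alas2, Top2a, Mki67 and Marco in WDF (left) and CD (right) females, with bars for mean ± SD (n = 5 and n = 4) and an open circle for CD 5. Slc4a1 separates the groups, Alas2 is highest in WDF 3 at 37440, and the other genes overlap.

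The megakaryocyte and platelet list (15 tested genes) was higher in WDF for all members, against 49.7% of all genes, with a median log2 difference of 0.35. A single member, Selp, had an unadjusted p under 0.05 (1.39% of all genes in this direction). This list rested on single libraries at both ends: 11 of 15 members had their highest value in WDF 3 and 10 had their lowest in CD 5. Itga2b, the platelet integrin chain, had 609.5, 554.7, 2970, 483 and 1330 normalised reads in WDF and 862.8, 454.8, 780.8 and 466.5 in CD, so that only WDF 3 and WDF 5 exceeded the CD range. Without CD 5 the median was 0.13 with 11 of 15 higher, and without WDF 3 it was 0.16 with 12 of 15 higher.

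Marco showed the smallest p of the named macrophage genes and of the higher genes named here that had a value in every library. It encodes the scavenger receptor by which liver macrophages take up bacteria and particles, at chr1:120474538-120505024, minus strand. WDF libraries had 1237, 2417, 2223, 1462 and 3122 normalised reads, and CD libraries 1273, 1069, 1161 and 965.9. All WDF libraries but WDF 1 exceeded every CD library. The means were 2092 ± 760 in WDF (SD, n = 5) and 1117 ± 131 in CD (SD, n = 4), with a log2 difference of 0.83 and a standard error of 0.22 (limma, unadjusted p = 0.000669, adjusted p = 0.99993). It was 0.76 without CD 5. Other Kupffer cell and macrophage genes did not share this pattern: the median of the 14 tested was 0.07 (-0.03 without CD 5), Clec4f, the Kupffer cell lectin, differed by 0.08 and Csf1r, the macrophage growth factor receptor, by 0.11, and Vsig4, a complement receptor of resident macrophages, by -0.37.

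Further genes with the smallest p among those higher in WDF were Foxo3, Prkar2b, Add2, Yod1 and Plek2, none past the adjusted threshold. Foxo3, a transcription factor restrained by insulin signalling that also acts in red cell maturation, had 1803, 2533, 2298, 1853 and 2073 in WDF and 1756, 1429, 1585 and 1428 in CD, with no overlap. Prkar2b, a regulatory subunit of protein kinase A, had 1156 to 1537 in WDF and 883.8 to 1152 in CD, also with no overlap, though by a narrow gap. Add2, the beta chain of adducin in the red cell membrane skeleton, differed by 0.44 (unadjusted p = 0.00194) with WDF 4, at 2116, below the highest CD value of 2171. Yod1, a deubiquitinase, differed by 0.46, and Plek2, a pleckstrin of late red cell precursors, by 0.70.

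Fatty acid and triglyceride synthesis was the metabolic list with the most one-sided count, and its size depended on CD 5. Of 23 members, 21 were lower and 2 higher in WDF with a median log2 difference of -0.19. No member had an unadjusted p under 0.05 in either direction, and none passed the adjusted threshold. CD 5 held the lowest value of the 9 libraries for 11 of the 23 and the highest for 0. Without CD 5 the median was -0.47 (all tested genes -0.01), 22 of 23 were lower, and 3 had an unadjusted p under 0.05 (0.495% of all genes in this direction): Me1, Acss2 and Pnpla3. Then 6 of 23 were below every CD library (1.09% of all genes): Me1, Acly, Acss2, Fads1, Fads2 and G6pdx. These genes supply acetyl-CoA and NADPH or desaturate fatty acids.

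Me1 is malic enzyme, a cytosolic source of NADPH for fatty acid synthesis, at chr9:86581371-86695953 on the minus strand. It had 554.9, 295.2, 495.8, 333.6 and 388.7 normalised reads in WDF, against 695.5, 790.4, 680.6 and 460.5 in CD. All WDF libraries were below CD 1, 2 and 3, while CD 5 lay inside the WDF range. The means were 413.6 ± 109.3 in WDF (SD, n = 5) and 656.8 ± 139.6 in CD (SD, n = 4), or 722.2 ± 59.6 in CD without replicate 5 (SD, n = 3). The log2 difference was -0.68 with a standard error of 0.36 (limma, unadjusted p = 0.0702), and -0.84 without CD 5 (unadjusted p = 0.041).

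Acly, which cuts citrate to cytosolic acetyl-CoA, shows how CD 5 enters these values. It had 6334, 4847, 4818, 5278 and 4877 normalised reads in WDF and 7045, 8244, 7309 and 3151 in CD. CD 1, 2 and 3 were above and CD 5 below every WDF library. The log2 difference was -0.22 with all 9 libraries (limma, unadjusted p = 0.444) and -0.53 without CD 5 (unadjusted p = 0.0647). Acss2, the acetate-activating enzyme, differed by -0.56 with all libraries (limma, unadjusted p = 0.181) and by -0.95 without CD 5 (unadjusted p = 0.0311). Fads2, a desaturase of polyunsaturated fatty acids, differed by -0.38 and, without CD 5, by -0.72. Fasn, the fatty acid synthase itself, had 5168, 4374, 4134, 2985 and 5910 in WDF and 5378, 6634, 7848 and 2974 in CD, which overlapped with and without CD 5. Scd1, stearoyl-CoA desaturase, had a difference of -0.44 (unadjusted p = 0.265), and Srebf1, the gene of SREBP1, of -0.16 (unadjusted p = 0.45). Mlxipl, which encodes the carbohydrate-responsive factor ChREBP, was one of the pair higher in WDF, at 0.12.

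**Figure D3:**
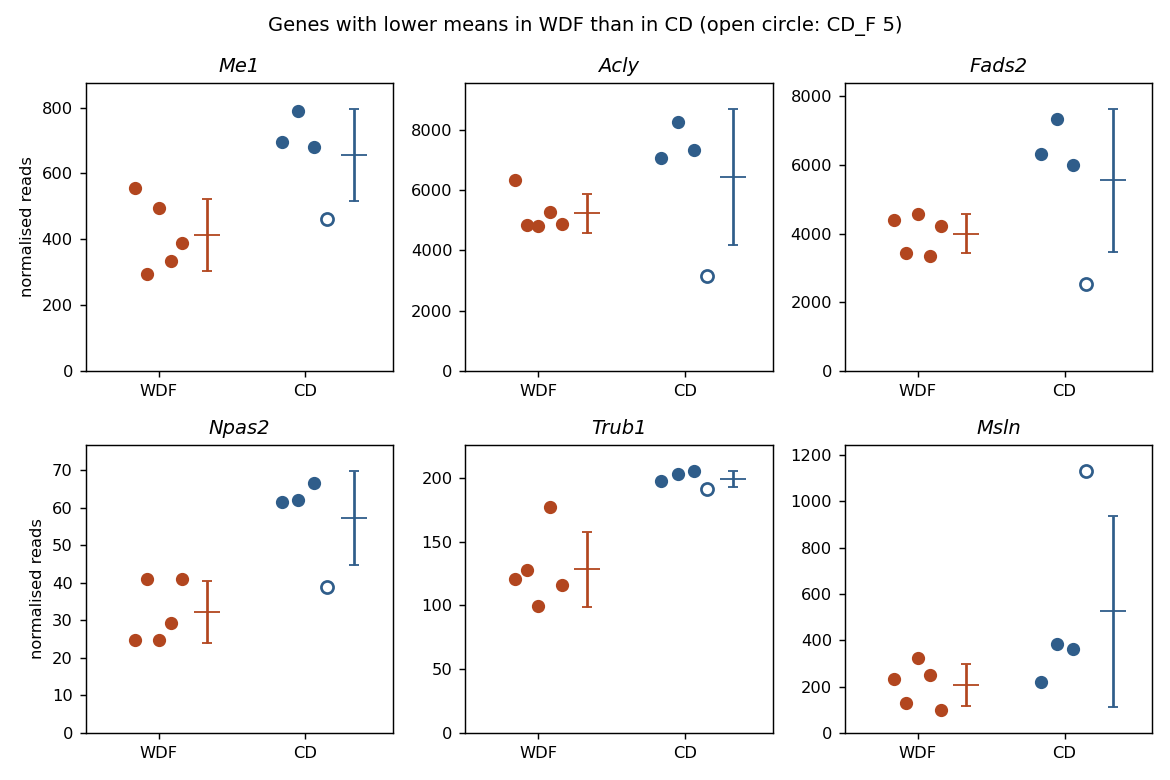
Normalised reads per library of Me1, Acly, Fads2, Npas2, Trub1 and Msln in WDF (left) and CD (right) females, with bars for mean ± SD (n = 5 and n = 4) and an open circle for CD 5. CD 5 sits near or under the WDF values for the lipid genes and Npas2, with the other CD libraries for Trub1 and far above them for Msln at 1132.

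Cholesterol genes did not separate WDF from CD. Of 24 members 11 were higher and 13 lower, with a median log2 difference of -0.01, and 0 had an unadjusted p under 0.05 by limma in either direction. Sqle, the squalene epoxidase of sterol synthesis, had 3141, 3285, 2131, 3029 and 2664 normalised reads in WDF and 2859, 3441, 3654 and 1791 in CD. Its range in WDF lay inside that of CD. CD 5 was lowest of the 9 for 16 of the 24 members, and without it 22 of 24 were lower, with a median of -0.20 and still 0 at an unadjusted p under 0.05.

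Genes that burn fatty acids had no common direction. Of 30 fatty acid oxidation and PPARalpha target genes 15 were higher and 15 lower, with a median of -0.00 and 0 at an unadjusted p under 0.05. Without CD 5, 21 were higher and 9 lower with a median of 0.03, and without WDF 2, 23 were higher and 7 lower with a median of 0.07. Cpt1a, which admits fatty acids to mitochondria, differed by -0.09. Among 18 lipoprotein and lipase genes the median was 0.04, and 2 had an unadjusted p under 0.05, both lower (1.61% of all genes). Abcg8, one chain of the transporter that exports cholesterol to bile, had 31.4, 27.1, 40.5, 36.4 and 21.2 normalised reads in WDF, against 71.3, 107, 68.8 and 24.5 in CD. All WDF libraries were under CD 1, 2 and 3, and CD 5 lay within them, so the log2 difference was -0.95 (limma, unadjusted p = 0.0208) and -1.37 without CD 5 (unadjusted p = 0.00135). Its partner chain Abcg5 differed by -0.83 (unadjusted p = 0.137), and Pltp, the phospholipid transfer protein, by -0.70 (unadjusted p = 0.0332).

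A pair of hormone-responsive metabolic genes, named after their values were seen, varied more between WDF fetuses than between the diets. Thrsp, a lipogenic nuclear protein induced by thyroid hormone, ranged from 11.2 in WDF 2 to 231.1 in WDF 3, against 81.8 to 184 in CD. Tat, the tyrosine aminotransferase that glucocorticoids induce around birth, had 25.4 in WDF 2 and up to 855.1 in WDF 1, against 360.4 to 815.2 in CD. WDF 2 was the lowest of the 9 libraries for both. The standard errors of their log2 differences, 0.95 and 0.98, were near the size of the differences, -1.25 and -1.23.

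Folate genes, the direct recipients of the vitamin, stayed close to CD as a group. Of 25 tested members of the folate transport and cycle list 12 were higher and 13 lower, with a median log2 difference of -0.02 (-0.03 without CD 5), and none passed the adjusted threshold. Folr1, the folate receptor alpha gene, was below the filter, at 1.87 to 14.5 normalised reads in WDF and 4.49 to 15.9 in CD. Slc19a1, the reduced folate carrier, had 157.3, 148.8, 120.7, 162.7 and 125.8 in WDF and 154, 148.6, 146.9 and 131.7 in CD, and Slc46a1, the proton-coupled carrier, differed by -0.08.

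The only folate members at an unadjusted p under 0.05 (limma) were Mthfd2 and Shmt2, both mitochondrial and higher in WDF. They are 2 of 25 tested members, against 1.39% of all genes in this direction. The count of such higher members was 0 without CD 5, without CD 2 or without WDF 2, and 3 without WDF 4. Mthfd2, the mitochondrial methylene-tetrahydrofolate dehydrogenase of proliferating cells, at chr6:83305691-83325908 on the minus strand, had 1033, 1207, 945.5, 815 and 1013 normalised reads in WDF, against 836.3, 582, 929.1 and 533.3 in CD. WDF 4 was inside the CD range and the others above it. Mthfd2 differed by 0.50 (log2) with a standard error of 0.21 (limma, unadjusted p = 0.0197), and 0.37 without CD 5 (unadjusted p = 0.0997). Shmt2, the mitochondrial serine hydroxymethyltransferase, differed by 0.31 (unadjusted p = 0.0485), and by 0.25 without CD 5 (unadjusted p = 0.139). Mthfd2l, an isozyme, had the smallest p of the lower members at -0.34 (unadjusted p = 0.151).

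Methyl group metabolism showed no member at an unadjusted p under 0.05 among 17 tested, where limma gave 5 higher and 12 lower and a median of -0.09. WDF 2 held the lowest value for 8 of the 17. Without WDF 2, 10 were higher and 7 lower with a median of 0.01, and without WDF 4 the median was -0.14. Males had 11 higher and 6 lower, with a median of 0.06. Mtr, methionine synthase, which joins the folate and methionine cycles, had 259 to 336.6 normalised reads in WDF and 201 to 310.6 in CD. Bhmt, the betaine-dependent route to methionine, was spread widely in both groups, at 2077 to 7976 in WDF and 3513 to 8460 in CD. Among 8 DNA methylation writers and erasers the median was 0.04 and none had an unadjusted p under 0.05. Dnmt1, the maintenance methyltransferase of dividing cells, differed by 0.37 (limma, unadjusted p = 0.0838).

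Clock genes were mixed as a list, and Npas2 was the member with the smallest p. Npas2, a partner of BMAL1 that can stand in for CLOCK, at chr1:39193731-39363236 on the plus strand, had 24.8, 41.1, 24.8, 29.2 and 41.2 normalised reads in WDF, against 61.6, 62.2, 66.8 and 38.8 in CD. Each WDF library was under CD 1, 2 and 3, and CD 5 lay within the WDF values. The log2 difference was -0.82 with a standard error of 0.24 (limma, unadjusted p = 0.00161, adjusted p = 0.99993), and -0.99 without CD 5 (unadjusted p = 0.000395). Cry1, a repressor of the clock, differed by -0.50 (unadjusted p = 0.0108), or -0.39 without CD 5 (unadjusted p = 0.0599), while Per1, another repressor, differed by -0.07. Over 17 tested clock genes 7 were higher and 10 lower, with a median of -0.07. The labels used here do not give the hour of collection.

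Hepatocyte secretory genes and growth factors were close between the diets. The median of 18 secreted hepatocyte protein genes was 0.04, with 0 at an unadjusted p under 0.05. Alb was 1358000, 1235000, 990200, 1497000 and 1125000 in WDF and 1371000, 1436000, 1263000 and 892700 in CD, and Afp, the fetal albumin relative, differed by 0.12. In the insulin and IGF list of 16, Igf2, the main fetal growth factor, differed by 0.22 (unadjusted p = 0.226) and Igf1 by 0.23 (unadjusted p = 0.353). Igfbp6, an IGF2 binding protein, had 29.96 to 66.4 normalised reads in WDF, 66.5 to 82.9 in CD 1, 2 and 3, and 465.6 in CD 5. The groups did not overlap, by a gap that is small beside the spread within WDF, and the log2 difference of -1.27 (limma, unadjusted p = 0.0357) was -0.61 without CD 5 (unadjusted p = 0.294).

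Mesothelial markers, genes of the sheet that covers liver, lung, heart and gut, were lower in WDF for 10 of 10 members, with a median log2 difference of -0.85, and 3 had an unadjusted p under 0.05 (1.61% of all genes in this direction): Msln, Upk3b and Bnc1. None passed the adjusted threshold, and the 3 became 6 without CD 1 or without WDF 4, 1 without WDF 5, and 2 without CD 2, CD 3 or WDF 3. CD 5, with its lung and heart message, was highest for 8 of the 10. The summed markers were 639.2 to 1238 in WDF, 1054 to 1609 in CD 1, 2 and 3, and 3912 in CD 5. Without CD 5 all 10 were still lower, with a median of -0.56 and 0 at an unadjusted p under 0.05. Msln, mesothelin, had 234.5, 130.2, 322.6, 250.8 and 99.8 in WDF and 219.2, 385.9, 362.1 and 1132 in CD. Bnc1, a basonuclin of mesothelium, had 10.3 to 24.3 in WDF and 27.9 to 41.1 in CD, with no overlap (log2 difference -1.04, limma unadjusted p = 0.0334, and -1.03 without CD 5). How much surface or attached tissue each sample carried was not tested.

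Bile duct cell markers, of which Krt19 is shared with the mesothelial list, were lower for 7 of 8 tested members, with a median of -0.47 (-0.34 without CD 5). WDF 2 held the lowest value for 7 of the 8, against 10.8% of all tested genes. Without WDF 2 the median was -0.32 with 6 lower, and without WDF 4 it was -0.63 with 8 lower. Epcam, an adhesion protein of duct cells, had 18.5 to 58.5 in WDF and 51.3 to 200.5 in CD, with a difference of -1.08 (limma, unadjusted p = 0.0186; -0.67 and unadjusted p = 0.146 without CD 5). Sox9, the duct transcription factor, differed by 0.03. Lung and heart markers turned with CD 5: the 9 tested lung genes had a median of -0.70 with CD 5 and 0.07 without it, and the 4 tested heart genes -1.09 and 0.43. Without both CD 5 and WDF 1, which carries heart message, the heart median was -0.35. Endothelial markers had a median of 0.03 (10 tested), and stellate and mesenchymal markers -0.24, or -0.01 without CD 5 (12 tested).

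Among genes lower in WDF, Trub1 had the smallest p of those named, and its CD 5 value lay with the other CD libraries. Trub1, a pseudouridine synthase, at chr19:57452912-57491005 on the plus strand, had 120.9, 127.9, 99.8, 177 and 115.7 normalised reads in WDF, against 197.7, 203.2, 205.5 and 191.5 in CD. Every WDF library was below every CD library, and the CD values were close together. The means were 128.2 ± 29.1 in WDF (SD, n = 5) and 199.5 ± 6.26 in CD (SD, n = 4), with a log2 difference of -0.66 (limma, unadjusted p = 0.000865, adjusted p = 0.99993) and -0.68 without CD 5. In contrast, the other 7 lower genes named by smallest p, Lhfp, Ehd2, Pls3, Ackr3, Tspan15, Epn2 and Bambi, were all highest in CD 5. Ackr3, a chemokine scavenging receptor, had 51.9 to 76.0 in WDF, 90.2 to 114.8 in CD 1, 2 and 3 and 210.7 in CD 5, without overlap. Pls3, an actin bundling plastin, had 102.3 to 132.5 in WDF, 149.7 to 162.8 in CD 1, 2 and 3 and 368.4 in CD 5, also without overlap. Ehd2, a protein of caveolae, differed by -0.73 with CD 5 and by -0.37 without it.

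Gemin4, of the SMN complex, had the smallest unadjusted p of all named genes, with 2 CD values of exactly 0. It had 171.9, 257.1, 206.5, 243.3 and 295.4 normalised reads in WDF, 197.5 and 250.5 in CD 1 and CD 2, and was listed at 0 in CD 3 and CD 5. The 2 CD libraries with a value lay inside the WDF range. All other fitted libraries of the series, of either sex, had 78.8 or more. An exact 0 beside such values can be a failed estimate, so no fold is given.

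The same lists in the other female diets put the WDF values in context, as levels only, since every level is set to the CD mean. Red cell genes averaged 0.39 ± 0.30 in WDF (SD, n = 5), 0.41 ± 0.31 in WD (SD, n = 5) and 0.27 ± 0.19 in CDF (SD, n = 4), with CD at 0 by construction and an SD of 0.16 (n = 4). Fatty acid synthesis averaged -0.28 ± 0.26 in WDF and -0.35 ± 0.19 in WD, both 45% fat diets, and 0.11 ± 0.26 in CDF, where the SD in CD was 0.40. Me1 itself averaged 413.6 ± 109.3 in WDF, 356 ± 107.9 in WD, 844.4 ± 334.2 in CDF and 656.8 ± 139.6 in CD. Cell cycle genes averaged 0.25 ± 0.20 in WDF, 0.27 ± 0.20 in WD and 0.14 ± 0.16 in CDF. The folate list averaged 0.03 ± 0.04 in WDF, 0.07 ± 0.05 in WD and 0.08 ± 0.03 in CDF. Marco averaged 2092 ± 760 in WDF, 1759 ± 318 in WD, 1831 ± 304 in CDF and 1117 ± 131 in CD, so the CD mean was the lowest of the diets. Trub1 was likewise at 150.2 ± 16.7 in WD and 145.1 ± 26.8 in CDF, both under the 199.5 ± 6.26 of CD.

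**Figure D4:**
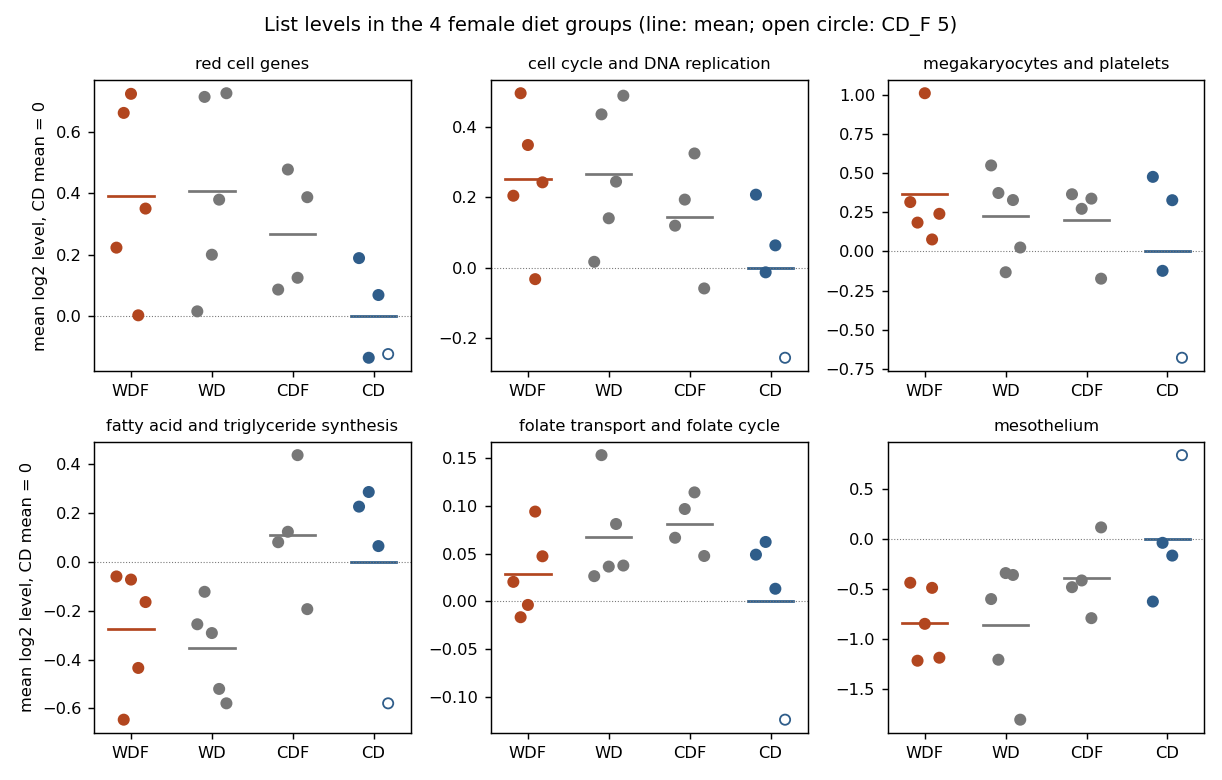
Mean log2 level of 6 gene lists in each library of WDF, WD, CDF and CD females, with the CD mean set to 0, lines for group means and an open circle for CD 5. Red cell levels run from 0.00 to 0.72 within WDF alone, and fatty acid synthesis lies under CD 1, 2 and 3 in all WDF and WD libraries.

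Male fetuses of the same diets, 5 libraries against 5, give the same comparison in other fetuses, which may share dams with the females. Set to the female CD mean, the lung marker level was 1.04 in male WDF 2 and 0.93 in male CD 5. The other male libraries of these diets had -1.3 to -0.54. One gene passed the adjusted threshold in males (0.00697% of 14343), Jph1, a junctophilin, with a log2 difference of -1.51 (limma, adjusted p = 0.0203); in females it differed by -0.25. In males 539 genes had an unadjusted p under 0.05 (3.76%), and 50.8% of all genes were higher in WDF. Across genes, which are not independent replicates, the female and male log2 differences had a Pearson r of 0.33 and a Spearman rho of 0.35 and the same sign for 63.1%. No gene passed the adjusted threshold for a difference of the diet effect between the sexes (0%), and 131 had an unadjusted p under 0.05 (0.913%).

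With CD 5 included, all 23 fatty acid synthesis genes had the same sign in both sexes. So did all 15 megakaryocyte and all 10 mesothelial genes. Without CD 5, Mlxipl differed by -0.05 in females, against 0.21 in males. Then 4 of the 15 megakaryocyte genes were lower in WDF females, while all 15 were higher in WDF males. All 10 mesothelial genes were still lower in both sexes. The fatty acid synthesis list had a male median of -0.50 beside a female median of -0.19, or -0.47 without CD 5. Me1 averaged 260.3 ± 80.9 in WDF males and 711.4 ± 178.4 in CD males (SD, n = 5 each), a log2 difference of -1.46 (limma, unadjusted p = 0.000145), and the sexes differed by 0.78 with a standard error of 0.50 (unadjusted p = 0.126). Npas2 differed by -0.76 in males, Abcg8 by -0.91, Marco by 0.76 and Plek2 by 0.60, each close to its female value. The mesothelial list had a male median of -0.71, with 10 of 10 lower, and the megakaryocyte list one of 0.56, with 15 of 15 higher.

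Red cell genes had a male median of 0.10, with 23 of 29 higher, and cell cycle genes one of 0.06, with 22 of 34 higher. The difference between the sexes was not past an unadjusted p of 0.05 for any member of either list. Trub1 differed by -0.15 in males (difference between the sexes -0.51, unadjusted p = 0.0493), and Foxo3 by 0.05 (difference between the sexes 0.39, unadjusted p = 0.036). The cholesterol list had a male median of -0.55, with 23 of 24 lower, and 5 of 24 members had an unadjusted p under 0.05 for the difference between the sexes (0.913% of all genes), among them Sqle, Idi1 and Cyp51. Without CD 5 that count was 0. Lhfp and Adamts10, with Gemin4 the genes of smallest p in this difference, had their highest female value in CD 5.

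**Figure D5:**
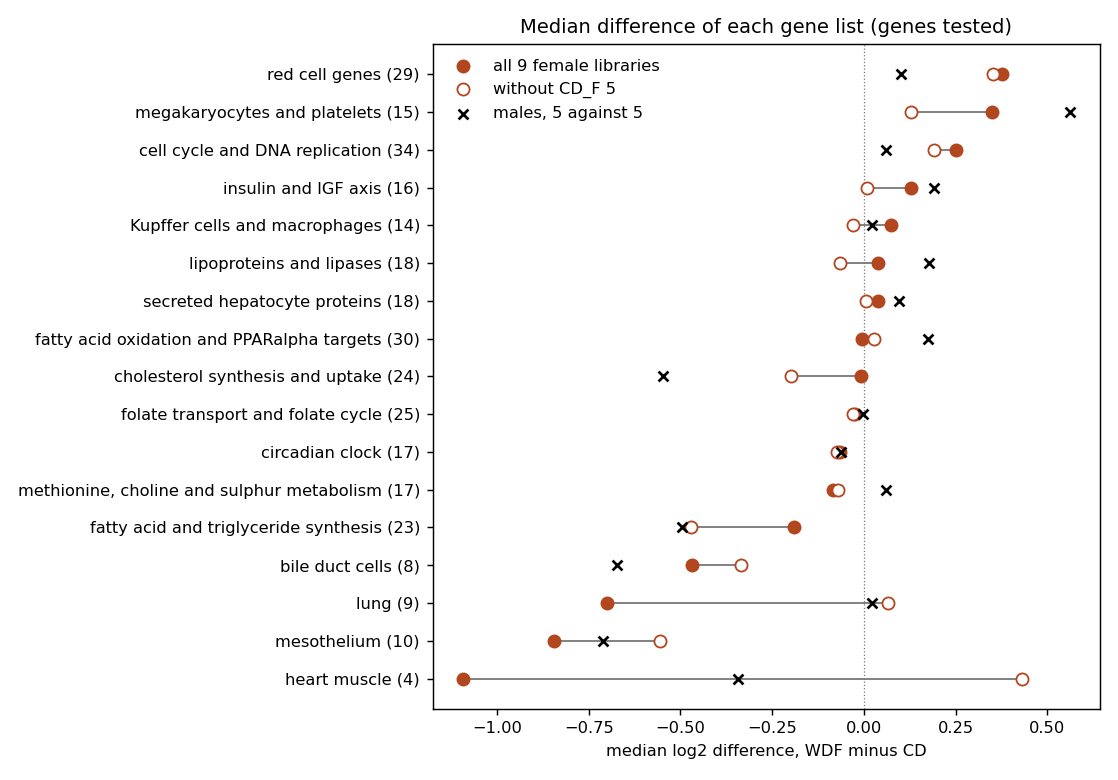
Median log2 difference (WDF minus CD) of 17 gene lists in females with all 9 libraries (filled), without CD 5 (open) and in males (cross), with the number of genes tested. The red cell median is 0.38 and 0.35 in females and 0.10 in males, and the fatty acid synthesis median without CD 5 lies at the male value.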

How the data were processed

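RNA of 40 fetal livers was measured, 1 library per fetus, 5 per diet and sex. Per the labels' protocols, libraries were directional, made from polyadenylated RNA and read as pairs of 43 nt. Per the submitters' processing notes, Trimmomatic 0.39, STAR 2.7.3a, Salmon 1.3.0, DESeq2 1.24 and build mm10 were named, without their roles. The deposited values are a signal scale: read counts that the authors divided by size factors (factors recomputed from the table were equal in all libraries). Whole reads were not recovered, so depth per library is known only as the sum of these values, 8.97 to 27.8 in units of 1000000.

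Values were taken as log2(value + 1), which understates the change of low genes, and modelled in limma 3.58.1 (R 4.3.3): 8 group means over 38 libraries (CD 4 and CDF 5 of the females left out), mean-variance trend, robust moderation and Benjamini-Hochberg adjustment over 14343 genes with at least 10 in at least 4 of the 9 libraries. The script was tested on simulated data. Named genes are the 8 of smallest p per direction with a mean of at least 50, the first 3 tested members of each list, the member of smallest p per direction in a list, and the 3 of smallest p in the sex difference; any others were chosen after their values were seen, and some genes the rule names are not reported here. The members and gene lists were chosen with earlier results of these data known. No pair of libraries correlated above 0.982, and each was counted as a separate sample. Of the female CDF columns, 1 lacks the sex letter and was matched to the only title of its diet left without a column. Coordinates are of GENCODE for mm10, in which 19987 of 20593 gene IDs were found. The authors' own 4 tables, which do not make this comparison, were not used. Alternatives changed the libraries, filter, pseudocount, scaling, moderation, weights, covariates, block and threshold.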

Additional observations from a re-analysis of the deposited data

Results flagged for a closer look

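Single libraries far from the rest of their group were looked for among the named genes. Of 168 gene and group pairs, 19 stood out by Dixon's test at its 95% critical value, and 12 of the 19 were in CD 5. Chance flags about 1 in 20 pairs at that value. The count cannot be set against this rate, since the named genes include lung and heart markers and genes chosen by their p.

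In CD 5 the lung genes Sftpd (570.9, others 2.49 to 7.05), Ager (3609, others 11.1 to 37.3), Rtkn2 (163.8, others 31.9 to 45.8) and Napsa (745.5, others 168 to 187.3) were far above the other CD libraries. So were the heart genes Myl7 (948.3, others 21.4 to 37.8), Myl4 (1003, others 37.5 to 60) and Tnnt2 (3449, others 27.9 to 38.9). The same held for Ehd2 (807.7, others 242.2 to 336.9), Pls3 (368.4, others 149.7 to 162.8), Igfbp6 (465.6, others 66.5 to 82.9), Krt7 (892.5, others 95.3 to 110.5) and Adamts10 (319.2, others 128.8 to 160.3).

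WDF 1 stood out for Myl7 (114.3, others 16.6 to 27.5) and Tnnt2 (1042, others 16.4 to 47.9). WDF 3 stood out for Alas2 (37440, others 9870 to 16580), Pf4, a platelet chemokine (2369, others 703.2 to 945.7), and Ttr, transthyretin (68330, others 53050 to 56890). WDF 2 stood out for Slc4a1 (39960, others 28460 to 31670) and WDF 4 for Ehd2 (301.8, others 201.1 to 224.7).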

How the results depend on the processing

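The count of genes past an adjusted p of 0.05 between WDF and CD was 0 with all libraries and 0 or 1 in every alternative: 1 in the fit of the 9 compared libraries alone (Gm49832, 6.42 to 17.7 in WDF and listed at 0 in all CD libraries), and 0 to 1 when 1 library was left out at a time (Gemin4 without CD 1 and without CD 2). The count of 430 at an unadjusted p under 0.05 was 1317 with all 40 libraries. It was 694 with a red cell covariate and 264 with a lung covariate. Without CD 5 and WDF 1, an alternative chosen after seeing the data, it was 235. With no filter it was 667, but over 20588 genes in place of 14343. Leaving out 1 library gave 166 (without CD 5) to 692 (without CD 1). For the difference by sex, the 131 genes became 665 with library weights and 285 with a red cell covariate. They became 380 with no filter, again over 20588 genes, and 93 to 216 when 1 library was left out. The adjusted count was 0 in every alternative run. The fits of the 9 libraries or of the 18 female libraries alone give no difference by sex. The causes were not tested.

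Deviations of WDF and CD samples with the same replicate number had correlations of -0.05 to 0.16, and those with different numbers -0.42 to 0.25. With so few pairs, whether the numbers pair fetuses cannot be told. With a replicate block, 643 genes had an unadjusted p under 0.05 and 0 passed the adjusted threshold.

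Leaving out CD 5 turned the sign of 9 of 84 named genes and of 9 of 33 list medians, and a red cell covariate that of 17 and 14. The red cell median, 0.38, was -0.07 with that covariate, which is built from the same genes, and the cell cycle median, 0.25, was 0.02. Library weights moved the megakaryocyte median from 0.35 to 0.02.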

Other observations

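Further gene lists are given here by their counts and medians, beside a median of -0.00 and 49.7% higher over all tested genes. The 29 tested nuclear genes of oxidative phosphorylation were higher in WDF for 25 and lower for 4, with a median log2 difference of 0.07, or 0.19 without CD 5, and males had 28 of 29 higher with a median of 0.14. None of the 29 had an unadjusted p under 0.05 in females (limma), and none passed the adjusted threshold. WDF 3 held the highest value for 23 of the 29 and CD 2 the lowest for 17. Set to the CD mean, the list level was -0.08, -0.08, 0.52, -0.15 and 0.13 in WDF 1 to 5. It was -0.03, -0.27, -0.05 and 0.36 in CD 1, 2, 3 and 5. Interferon response genes had a median of 0.25 (12 of 17 higher), or 0.15 without CD 5, and Cxcl10, a chemokine, differed by 0.75. Neutrophil granule genes had a median of -0.17 (4 of 16 higher) and B cell precursor genes one of -0.04 (5 of 12 higher), or -0.16 without CD 5. Bile acid genes had a median of -0.09 in females and 0.21 in males, and urea cycle and amino acid genes -0.04 and 0.07.

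Hamp, the iron-regulating hormone hepcidin, named after its values were seen, varied widely in both groups. It had 233.1, 433.3, 419.1, 442.1 and 126.6 normalised reads in WDF, against 88.4, 22.7, 181.7 and 493.5 in CD. CD 5 was the highest of the 9 libraries and CD 2 the lowest, so the groups overlapped.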
